A study of Mus musculus with 6 samples.

Results

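Tumor cells of mouse hepatocellular carcinoma (HCC) were profiled by single-cell RNA sequencing, and the cells described here are those outside the 7 large tumor clusters. They were chosen by the deposited annotation alone, as cells called tumor cells that lay in none of clusters 1, 3, 4, 5, 6, 7 and 9. The rule gave 3572 of 29638 tumor cells among 58794 annotated cells, split over cluster 14 (1779 cells), cluster 17 (1126 cells) and cluster 21 (667 cells), beside 26066 cells in the large clusters. Tumor tissue came from 6 wild-type male C57BL/6J mice, 8 weeks of age when obtained, each with H22 cells implanted into the liver, and 1 10x Genomics library was made per mouse. H22 is a single murine HCC line, here expanded as ascites before implantation, so that the tumors of both groups share 1 cell source. The control group (3 mice) was kept under standard housing, and the stress group (3 mice) underwent chronic unpredictable mild stress (CUMS), a schedule of changing daily stressors over 21 days. By the paper's account, H22 cells were implanted once the stress schedule and its behavioral evaluation were over. The control mice held 846, 756 and 649 of the cells, and the stress mice 474, 459 and 388. All control libraries were counted with Cell Ranger 9.0.0 and all stress libraries with 7.1.0, so the effect of stress and of the counting software cannot be told apart.

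The libraries held 7774 to 12141 barcodes, of which 7239 to 11752 were annotated cells with 149558935 to 187728350 unique molecular identifiers (UMIs) in all. Of the 3572 cells, 63 carried a barcode that also marked a cell in another library, and 15 shared it with another cell of clusters 14, 17 or 21. Replicates are separate mice. Levels are given in CPM, the counts scaled to a total of 1000000 UMIs, from the UMIs summed over the cells of 1 cluster in 1 mouse, with the mean ± SD over the 6 mice, and log2 ratios to the large clusters carry a pseudocount of 5 CPM. Because the clusters had been built from the expression of these same genes, a cluster set against the large clusters is a description and carries no test; tests were made only between stress and control mice.

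A dividing cell passes from DNA replication in S phase to G2 and mitosis, and each step has its own transcripts, which rise and are lost again in every cycle. Transcripts also differ in place and lifetime within the cell. Malat1, Neat1, Xist and Kcnq1ot1 are long noncoding RNAs that stay in the nucleus, immediate-early mRNAs such as Fos and Egr1 are made on stimulation and decay fast, and the short mRNAs of ribosomal proteins are abundant, long-lived and cytoplasmic. Small nucleolar RNA (snoRNA) host genes such as Gas5 and Snhg1 carry snoRNAs in their introns and share with ribosomal protein genes a start in a run of pyrimidines.

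Keratin 18 (Krt18), an epithelial filament protein, was present in all 3 clusters, at 303 ± 47.7 CPM in cluster 14, 270 ± 67.0 CPM in cluster 17 and 344 ± 37.2 CPM in cluster 21 against 433 ± 102 CPM in the large clusters. After thinning every cell to 1000 UMIs, Krt18 was found in 25.5% of the cells of cluster 14, 21.9% in cluster 17 and 28.6% in cluster 21, beside 30.8% in the large clusters and 2.90% in endothelial cells (ECs), which should lack it. Without thinning these shares were 96.6%, 41.8%, 82.8%, 96.7% and 11.1%. The summed level of the 14 tumor identity genes was 0.736 times that of the large clusters in cluster 14, 0.800 times in cluster 17 (0.625 to 0.947 by mouse) and 0.610 times in cluster 21. The fetal genes H19 and Dlk1 were at 0 UMIs in cluster 14, and Cldn7, Cdh1, H19, Igf2, Dlk1 and Gpc3 in cluster 21. The large clusters held at most 0.48 CPM of any of these, so that the list rests on Krt18, Sox4, Epcam, Cldn6, Afp and Krt19 in all classes. Epcam, an epithelial adhesion protein, was at 106, 113 and 139 CPM in clusters 14, 17 and 21 against 148 CPM. Alpha-fetoprotein (Afp), the fetal serum protein of HCC, reached 135 ± 42.3 CPM in cluster 21 and lay above the large clusters (79.6 ± 19.1 CPM) in 6 of 6 mice, whereas Sox4, a transcription factor of progenitor cells, was at 45.9 ± 13.0 CPM there against 389 ± 60.8 CPM. The tumor label therefore held on these markers for clusters 14 and 21. Cluster 17 is given by its number only, since its cells were shallow for their libraries.

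Depth and composition differed between the 3 clusters. Cells of cluster 14 had a median of 32946 UMIs and 5851 genes, above the 28369.5 UMIs and 5559 genes of the large clusters. Among the latter, clusters 1 (35659 UMIs, 6040.5 genes) and 4 (36299 UMIs, 6398 genes) were deeper than cluster 14. Cluster 17 had a median of 1852 UMIs and 1155 genes, 0.0669 to 0.256 of the median of its own library, and 322 of its cells held fewer than 1000 UMIs. Cluster 21 lay between them at 10343 UMIs but only 1745 genes. When cells were thinned to 1000 UMIs, cluster 21 still had the fewest genes, 420 per cell (382 to 487.5 by mouse), beside 634 in cluster 14, 704 in cluster 17 (322 shallower cells left out) and 649 in the large clusters. Ribosomal protein genes took a median of 43.4% of the UMIs in cluster 21, 26.6% in cluster 14, 14.1% in cluster 17 and 23.2% in the large clusters. Cells called doublets made up 13.2% of cluster 17, 1.01% of cluster 14 and 3 of the 667 cells of cluster 21.

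**Figure D1:**
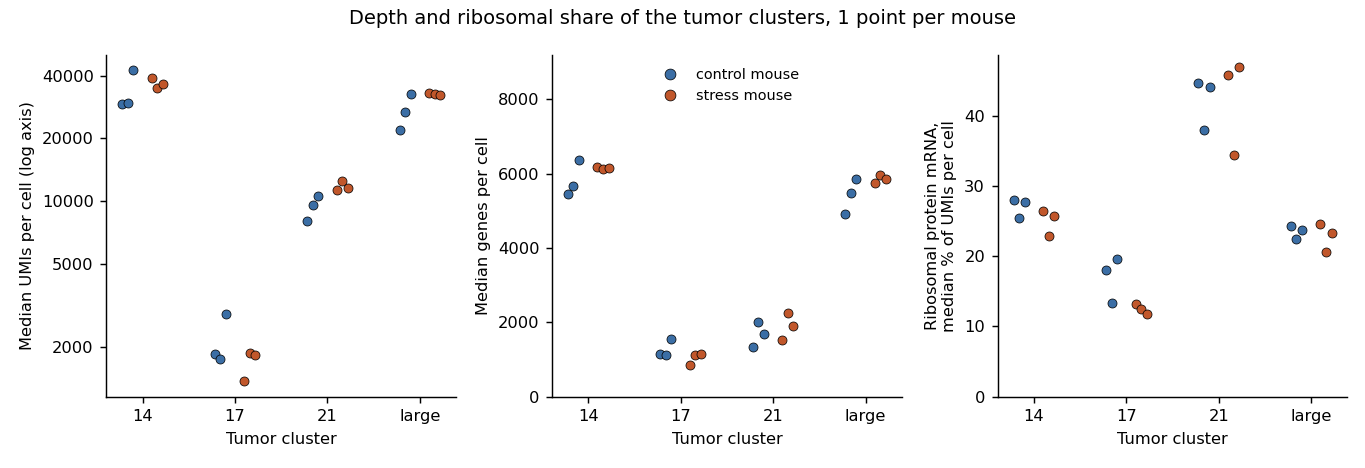
Median UMIs per cell (log axis), median genes per cell and the median percent of UMIs in ribosomal protein genes for clusters 14, 17 and 21 and the large tumor clusters, with 1 point per mouse (blue, control; orange, stress). Cluster 17 sat at 1369 to 2877 UMIs in every mouse and cluster 21 at 34.4 to 46.9% ribosomal protein UMIs, above the other classes in each mouse.

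Cluster 14 was led by mitotic genes. The 10 genes highest over the large clusters were Prc1, Ube2c, Kif11, Sgo2a, Nusap1, Cenpf, Dlgap5, Snhg1, Hmmr and Ect2, and 9 of them act in G2 or mitosis, the exception being the snoRNA host Snhg1. Prc1, which bundles the microtubules of the central spindle, was at 189, 202 and 171 CPM in the control mice and at 149, 185 and 153 CPM in the stress mice. In the large clusters Prc1 was at 73.7, 80.3 and 68.9 CPM and at 55.4, 67.9 and 49.2 CPM, a log2 ratio of 1.34 ± 0.11. Every mouse was thus higher in cluster 14 than any mouse was in the large clusters. Ube2c, the ubiquitin-conjugating enzyme with which the anaphase-promoting complex marks cyclins for breakdown, reached 567, 713 and 512 CPM in control and 471, 526 and 391 CPM in stress mice, against 132 to 321 CPM in the large clusters (log2 ratio 1.31 ± 0.15). Thinned to 1000 UMIs, 35.2% of cluster 14 cells held a Ube2c UMI, against 13.2% of the large clusters and 1.85% of ECs, and 97.0% did without thinning. The level of Kif11, the motor that pushes spindle poles apart, was 53.1 CPM against 19.2 CPM, and that of Cenpf, a kinetochore protein, 133 CPM against 54.0 CPM. Snhg1 was at 566 ± 67.0 CPM against 239 ± 21.99 CPM.

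The promoters of the leading genes are shown because many late cell cycle genes carry a short element, the cell cycle genes homology region, whose core reads TTTGAA and at which repressor complexes of resting cells are known to bind. Of the 9 leading genes found in the RefSeq promoter table (250 bases before to 50 after the start, GRCm38.p6), 6 held TTTGAA on either strand, which is 66.7%. The hexamer was in 13 of 18 matched genes of the G2/M list (72.2%) and in 5466 of 27025 promoters of all genes (20.2%). In the windows of 30 bases, capitals mark TTTGAA or its complement TTCAAA, and each line reads 5′ to 3′ on the strand of the gene. A match is a description of the letters, not a measured site.
Prc1, chr7:80294434-80294463, plus strand: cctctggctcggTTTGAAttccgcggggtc
Ube2c, chr2:164769888-164769917, plus strand: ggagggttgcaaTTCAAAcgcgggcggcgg
Kif11, chr19:37376351-37376380, plus strand: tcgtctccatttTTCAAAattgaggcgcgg
Cenpf, chr1:189688067-189688096, minus strand: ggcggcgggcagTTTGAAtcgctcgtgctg
Hmmr, chr11:40733412-40733441, minus strand: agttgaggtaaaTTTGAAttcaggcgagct
Ect2, chr3:27153822-27153851, minus strand: cgactggattttTTTGAAtcggaggcggca

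All 20 genes of the G2/M list were higher in cluster 14 than in the large clusters in every mouse, beside 23.7% of the 6438 genes of at least 20 CPM. Their median log2 ratio was 0.94 and that of all 6438 genes -0.02. The summed level of the list was 3341 ± 467 CPM, against 3168 ± 500 CPM in cluster 4 and 3025 ± 384 CPM in cluster 1, the large clusters with the next highest levels, and 1664 ± 356 CPM over all large clusters. Top2a, the topoisomerase that untangles chromosomes, was at 425, 534 and 447 CPM in control and 329, 531 and 396 CPM in stress mice, higher in each mouse than in its own large clusters (170 to 319 CPM). Mki67, the proliferation antigen, was at 83.5 ± 13.5 CPM against 41.3 ± 8.59 CPM, and the mitotic cyclin gene Ccnb1 had a log2 ratio of 1.03. The S phase list was higher to a smaller degree, in 15 of the 19 members of at least 20 CPM and with a median of 0.39. Among them Dtl, which marks the licensing factor Cdt1 for breakdown, was at 0.82 and Pcna, the clamp of DNA polymerase, at 0.42. Across 6438 genes the mean profile of cluster 14 correlated most with cluster 4 (Pearson r = 0.982) and then cluster 1 (0.966); genes are not replicates and the libraries are shared, so these values only describe likeness.

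**Figure D2:**
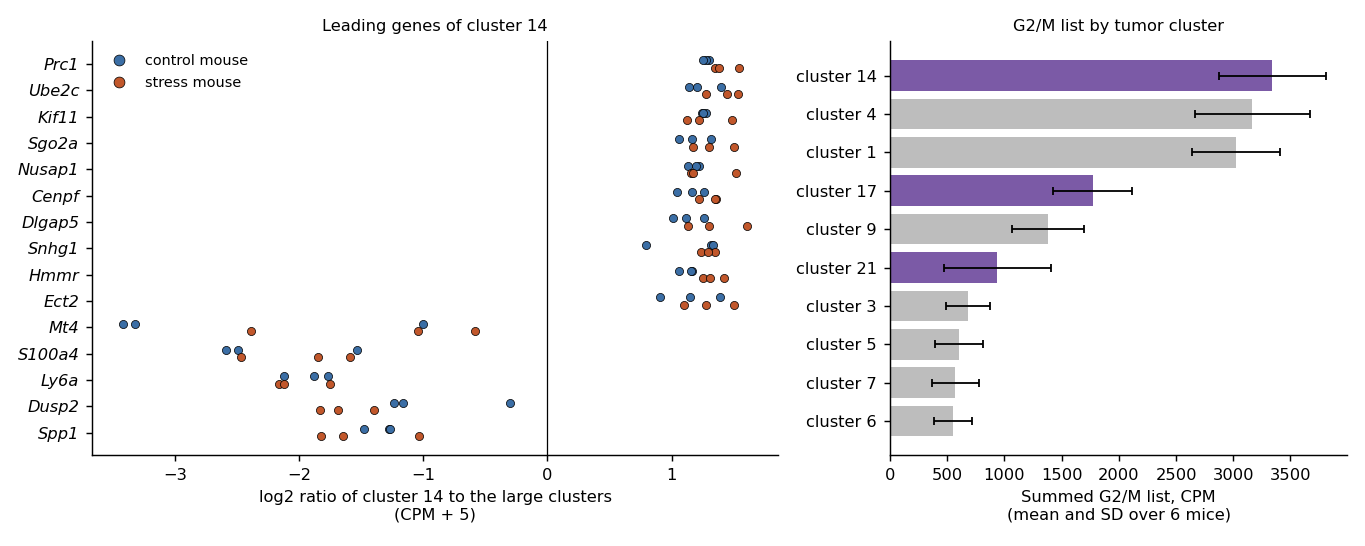
Left, log2 ratio of cluster 14 to the large clusters (pseudocount 5 CPM) for its 10 leading and 5 lowest genes, with 1 point per mouse; right, summed CPM of the G2/M list by tumor cluster, with bars for the mean and lines for the SD over 6 mice (purple, clusters 14, 17 and 21; grey, large clusters). The leading genes lay above 0 in each mouse, and cluster 14 had the highest G2/M mean, 3341 CPM, within 1 SD of the 3168 CPM of cluster 4.

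Groups outside the cell cycle were higher in cluster 14 as well, beside 23.7% of all genes that were higher in every mouse. Of the 10 snoRNA host genes, 9 were higher in every mouse (median log2 ratio 0.66), Gas5 among them at 1524 ± 228 CPM against 774 ± 107 CPM, Snhg5 at 1.08 and Snhg12 at 0.96. Of 14 genes driven by ATF4, the factor of the amino acid and integrated stress responses, 13 were higher in every mouse (median 0.54). Atf4 itself was at 262 ± 29.3 CPM against 160 ± 21.6 CPM, the glutathione-degrading enzyme gene Chac1 had a log2 ratio of 0.79, and the amino acid transporter genes Slc7a5 and Slc3a2 stood at 0.63 and 0.58. Ribosomal protein genes were higher by little, 62 of 82 in every mouse with a median of 0.15.

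The genes lower in cluster 14 were of other kinds. The 5 lowest were Mt4, S100a4, Ly6a, Dusp2 and Spp1. Mt4, a metallothionein, was at 28.2, 1.70 and 14.9 CPM in control and 4.38, 2.14 and 1.29 CPM in stress mice, against 350, 8.40 and 195 CPM and 44.2, 5.73 and 7.96 CPM in the large clusters. It varied over mice in both classes and was below the large clusters in each of them. S100a4, a calcium-binding protein of migrating cells, was at 42.2 ± 7.54 CPM against 202 ± 69.8 CPM, and Ly6a, the surface protein Sca-1, at 66.6 CPM against 272 CPM. Spp1, the secreted protein osteopontin, was at 305 ± 134 CPM against 795 ± 217 CPM. Of 10 genes of mesenchymal and matrix programs, 9 were lower in every mouse, beside 29.7% of all genes, including S100a6 (3734 ± 472 CPM against 6413 ± 1138 CPM), Fn1 (log2 ratio -0.74) and Sparc (-1.36). All 13 mitochondrially encoded mRNAs and all 15 nuclear respiratory chain genes were lower too, with medians of -0.46 and -0.35. Immediate-early genes were lower in 10 of 15 cases and higher in 1, Myc (147 ± 23.4 CPM against 107 ± 30.4 CPM). All 4 genes of antigen presentation by class I that reached 20 CPM were lower, B2m at -0.59 and the loading factor gene Tapbp at -0.80. Cholesterol synthesis genes were lower in 6 of 12 cases, and 2 of 15 genes of the unfolded protein response were higher with 4 lower, beside 23.7% of all genes higher and 29.7% lower, so that nothing is read from the latter list.

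Cluster 17 was the shallow class, and its leading genes fell into several kinds. Igkc, the light chain constant region of plasma cells and B cells, was at 940, 19.3 and 26.4 CPM in control and 42.5, 201 and 151 CPM in stress mice, against 10.4, 6.84 and 14.4 CPM and 10.2, 20.7 and 43.1 CPM in the large clusters. Control mouse 1 alone exceeded 900 CPM, and in every mouse cluster 17 was the higher. After thinning, Igkc was seen in 5.72% of the cells of cluster 17 and in 1.82% of those of control mouse 1, so that its level there rested on few cells. Ptprb, the endothelial phosphatase VE-PTP, was at 65.2, 39.4 and 35.2 CPM and at 28.3, 56.9 and 109 CPM, against a mean of 4.31 CPM in the large clusters (log2 ratio 2.71 ± 0.55, and 1.88 without called doublets). Plac8, a myeloid and lymphoid gene, ranged from 4.396 to 158 CPM (2.68 ± 1.13, and 1.61 without called doublets). The protocadherin gene Pcdh17 was at 141, 143 and 103 CPM in control and 743, 266 and 485 CPM in stress mice, against 42.4 CPM. Lars2, Gphn, Cdk8, Cmss1 and Gm19951, of which the first 3 encode a mitochondrial leucyl-tRNA synthetase, the synaptic scaffold gephyrin and a kinase of the Mediator complex, made up 5 of the 10; their levels under stress are given with the stress comparison. Zfp791, a zinc finger gene, was at 33.2 CPM against 0.888 CPM.

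Markers of endothelial, immune, stellate and liver cells were higher on average in cluster 17 than in the large clusters. The summed level of 10 endothelial markers was 314 ± 107 CPM (185 to 507 CPM by mouse), 4.16 times the large clusters (2.62 to 6.25 times) and well below the mean of 7952 CPM in ECs. Of the 9 endothelial genes of at least 20 CPM, 8 were higher in every mouse, beside 37.8% of 7273 genes with a median of 0.29 over all of them. Pecam1, a junction protein of ECs, was at 47.0 CPM against 5.88 CPM, Stab2, the scavenger receptor of liver sinusoids, at 35.5 CPM against 3.23 CPM, and the receptor gene Kdr at 20.9 CPM against 1.85 CPM. Leaving out the called doublets took the log2 ratio of the summed endothelial list from 2.06 to 1.54. Macrophage and monocyte markers summed to 112 ± 66.3 CPM (5.26 times), neutrophil markers to 115 ± 116 CPM (5.54 times), dendritic markers to 111 CPM (3.43 times), T and NK cell markers to 33.8 CPM (7.47 times), B cell markers to 24.7 CPM (8.07 times) and stellate markers to 20.2 CPM (3.28 times). Erythroid transcripts ranged from 0 to 4573 CPM, the highest in control mouse 2, and sat in few cells: after thinning to 1000 UMIs, 0.373% of the cells of cluster 17 held one (0.585% in control mouse 2), so that this value is no level of the cluster at large. Hepatocyte markers were at 4.396 to 8.26 CPM in control and at 25.3 to 168 CPM in stress mice. The part of these transcripts in other results of cluster 17 was not tested.

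The endothelial transcripts were spread over single cells of cluster 17 at low counts. Of the 804 cells of cluster 17 with at least 1000 UMIs, 173 held an endothelial UMI after thinning (21.5%, against 7.03% of the large clusters and 98.4% of ECs). A tumor identity UMI was found in 101 of these 173 cells (58.4%), beside 60.6% of all 804, and 18 cells (2.24%) held 3 or more endothelial UMIs. Ptprb was seen in 5.97% of thinned cells of cluster 17 (9.77% unthinned), 0.353% of the large clusters and 81.5% of ECs. When cells below 1000 UMIs were left out, the summed endothelial level was 304 CPM, 4.03 times the large clusters, while the hepatocyte list went from 44.1 to 26.3 CPM and its highest mouse from 168 to 78.5 CPM.

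**Figure D3:**
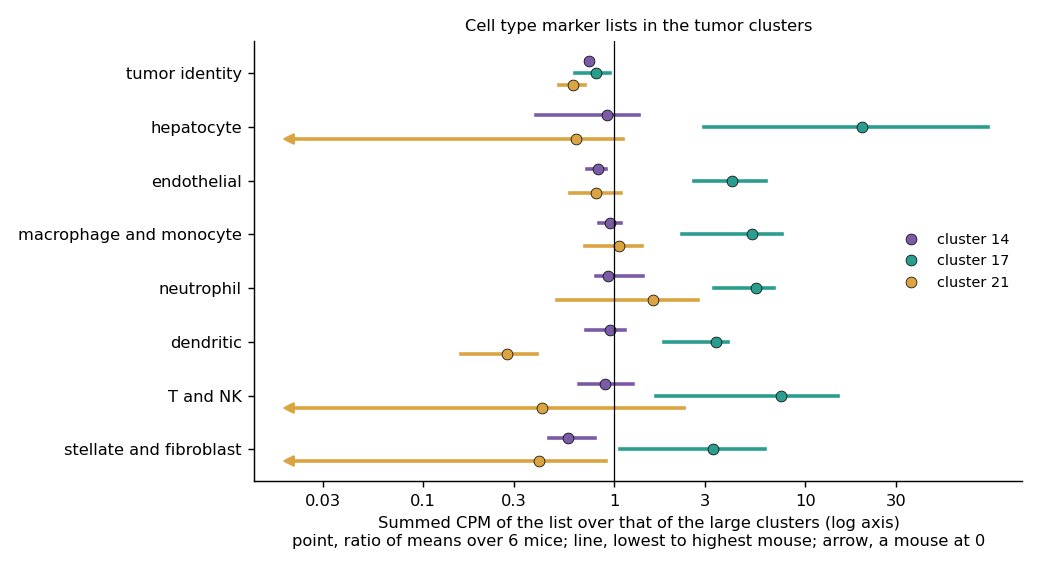
Summed CPM of 8 cell type marker lists in clusters 14, 17 and 21 as a ratio to the large tumor clusters (log axis), with the ratio of means as the point, the lowest to the highest mouse as the line, and an arrow where a mouse was at 0. Cluster 17 lay above 1 in every mouse for the endothelial list (2.62 to 6.25), while cluster 14 was at 0.825 times and cluster 21 at 0.804 times for it.

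Other features of cluster 17 concerned kinds of RNA. Malat1 was at 9117 ± 3070 CPM against 4410 ± 1385 CPM, Neat1 at 672 CPM against 342 CPM and Xist at 2477 ± 235 CPM against 1658 ± 133 CPM, so that the summed nuclear RNA list was 1.90 times the large clusters. Cluster 9, one of the large clusters, was high in Malat1 and Xist as well. After thinning, Malat1 was found in 92.9% of its cells and 93.3% of cluster 17, beside 88.1% of the large clusters. For Xist these shares were 84.9%, 76.0% and 74.2%, and for Neat1 21.2%, 43.8% and 26.6%. Ribosomal protein genes were lower, 70 of 82 in every mouse with a median of -0.51, beside 14.3% of all genes. Nuclear respiratory chain genes were lower in 13 of 15 cases (0.689 times in sum), whereas 8 of 13 mitochondrially encoded mRNAs were higher (1.19 times). The median cell did not show the latter: mitochondrial genes took 4.31% of its UMIs in cluster 17 and 4.48% in the large clusters. The lowest genes were Mgst3 (88.1 CPM against 184 CPM) and Prdx2 (323 CPM against 628 CPM), both of antioxidant defence, then Rrad, Timp1 and Mt4. Glucocorticoid-responsive genes were higher in every mouse in 5 of 10 cases, which beside 37.8% of all genes is not read as a feature of the list; they include Ddit4, an inhibitor of mTOR signaling (41.0 ± 12.6 CPM against 17.2 ± 7.13 CPM), Errfi1 (0.91) and Fkbp5 (0.55). Cycle genes were near the large clusters (G2/M 1771 ± 348 CPM in sum, 1.06 times).

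Cluster 21 was high in ribosomal protein transcripts and low in nuclear RNAs. Rps26, a protein of the small ribosomal subunit, was at 8545, 6279 and 7709 CPM in control and 7055, 4598 and 6902 CPM in stress mice, against 1944 to 3191 CPM in the large clusters (log2 ratio 1.36 ± 0.10). No mouse overlapped between the classes. Ribosomal protein genes were higher in every mouse in 81 of 82 cases (median 0.86), beside 7.69% of 6240 genes higher, 77.4% lower and a median of -1.19 over all genes. Rpl35 (2253 CPM against 1051 CPM), Rps29 (4938 CPM against 2443 CPM) and Rpl38 (2568 CPM against 1300 CPM) were among the 10 leading genes with Rps28 and Lars2. Lars2 stood apart mainly in the stress mice, as its levels in the stress comparison show. Gm2000 and the unnamed ENSMUSG00000121644 (449 CPM against 176 CPM) were among them too; Gm2000 is a near copy of a ribosomal protein gene, so its reads may have been divided with the parent gene.

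The start sites of these genes are shown because ribosomal protein mRNAs are known to open with a pyrimidine run, the 5′ terminal oligopyrimidine tract, through which growth signaling controls their translation. A C followed by at least 4 C or T, beginning from 5 bases before to 8 after the annotated start, was found in 4 of the 5 leading genes in the promoter table (80.0%), in 35 of 65 ribosomal protein genes (53.8%) and in 6826 of 27025 genes overall (25.3%). Capitals mark the stretch counted, from its first C within that range, in these windows of 30 bases (RefSeq, GRCm38.p6), read 5′ to 3′ on the strand of the gene. Pyrimidines that adjoin it upstream are in small letters. In Lars2 and Rpl35 the whole run thus begins before that range, and only part of it is marked. The run marked in Lars2 lies wholly before the annotated start.
Rps26, chr10:128626492-128626521, minus strand: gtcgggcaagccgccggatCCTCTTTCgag
Lars2, chr9:123366912-123366941, plus strand: gcggcctcccCTTTCgataaagttgttgtt
Rpl35, chr2:39005117-39005146, minus strand: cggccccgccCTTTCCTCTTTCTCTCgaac
Rpl38, chr11:114668565-114668594, plus strand: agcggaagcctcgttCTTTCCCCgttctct

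Malat1, the lowest gene of cluster 21, was at 152, 252 and 127 CPM in control and 302, 254 and 215 CPM in stress mice, against 3513, 3513 and 3317 CPM and 4801, 4332 and 6983 CPM in the large clusters. The log2 ratio of -4.31 ± 0.46 lay far below the median of all genes, and the classes did not overlap in any mouse. Xist was at 122.6 ± 40.7 CPM against 1658 ± 133 CPM, Neat1 at 16.4 ± 6.45 CPM against 342 ± 32.1 CPM, and Kcnq1ot1 at 6.35 CPM against 132 CPM, so that the 4 nuclear RNAs together were 0.0554 times the large clusters. At 1000 UMIs, Malat1 was found in 9.90% of the cells of cluster 21 (61.3% unthinned) against 88.1% of the large clusters, and Xist in 7.05% (40.5% unthinned) against 74.2%, with 10.8% of ECs of these male mice. The Xist share of cluster 21 was therefore at or below that of a cell type that should lack it. Per cell, the 4 nuclear RNAs made up a median of 1.33 of 10000 UMIs in cluster 21, 66.4 in cluster 14 and 92.6 in cluster 17. The median was 53.8 in the large clusters, and 75.7 in cluster 9 among them. They were below the 5th percentile of the large clusters (18.7 per 10000) in 96.9% of cluster 21 cells, and at 0 in 23.2% against 0.0537%.

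Immediate-early genes were low in cluster 21 too. Fos, a subunit of the AP-1 factor, was at 50.7, 73.1 and 46.2 CPM in control and 21.3, 7.095 and 25.2 CPM in stress mice, against 1149, 820 and 1053 CPM and 569, 336 and 552 CPM in the large clusters. All 15 immediate-early genes of at least 20 CPM were lower in each mouse, with a summed level of 562 CPM against 6579 CPM, 0.0854 times. Egr1, a zinc finger factor, was at 47.1 CPM against 873 CPM, Jun at 21.8 CPM against 297 CPM and Junb at 79.2 CPM against 746 CPM. Cluster 9, one of the large clusters, was low in Fos and Egr1 too, to a smaller degree. After thinning, Fos was found in 6.64% of its cells, 2.10% of cluster 21 and 39.5% of the large clusters. For Egr1 these shares were 15.7%, 4.80% and 43.1%. The other genes of the lowest 5 were Klf6, a zinc finger factor (47.9 CPM against 887 CPM), Tiam2, an exchange factor of Rac (12.2 CPM against 301 CPM), and Tafa2, a secreted chemokine-like protein (13.1 CPM against 316 CPM). Glucocorticoid-responsive genes were lower in 8 of 8 cases (0.127 times in sum), with the kinase gene Sgk1 at a log2 ratio of -3.06, the NF-kB inhibitor gene Nfkbia at -3.33 and Fkbp5 at -2.33. Heat shock genes were lower in 8 of 12 cases, a share below the 77.4% of all genes, with Hspa1b (-3.52) and Dnajb1 (-2.80) among them, while the mitochondrial chaperonin gene Hspe1 was higher at 0.31.

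Within pathways, cluster 21 was high for some members and low for others, beside 7.69% of all genes that were higher in every mouse. Gapdh, a glycolytic enzyme, was at 3720 ± 554 CPM against 2292 ± 288 CPM, whereas the hypoxia-responsive genes Hk2 and Vegfa stood at -2.46 and -2.20; in all, 4 of 18 genes of the glycolysis and hypoxia list were higher in every mouse and 10 lower. Cox6c, a subunit of cytochrome oxidase, was at 1323 ± 98.0 CPM against 736 ± 29.2 CPM, and 10 of 15 nuclear respiratory chain genes were higher with 3 lower. The small secreted or calcium-binding proteins encoded by Lgals1 (2916 ± 279 CPM against 1650 ± 109 CPM) and S100a6 (9718 ± 1282 CPM against 6413 ± 1138 CPM) were higher, while the mesenchymal transcription factor genes Zeb1 and Zeb2 were at -2.21 and -2.30. The snoRNA host list held 4 higher genes, including Eef1b2 (2755 ± 691 CPM against 1555 ± 249 CPM), and 2 lower ones, Snhg5 (-1.08) and Snhg15 (-1.04). Replication histones were lower in 6 of 7 cases, G2/M genes in 12 of 16, S phase genes in 15 of 17, cholesterol synthesis genes in 11 of 12 and genes of the unfolded protein response in 12 of 15. With 77.4% of all genes lower in cluster 21, these counts are not read as a feature of the lists.

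Gene span went with these levels. Among genes spanning at most 5 kb from start to end, the median log2 ratio of cluster 21 to the large clusters was -0.26, and it stepped down with span to -0.46, -0.75, -1.22, -1.71, -2.01 and, for genes over 200 kb, -2.26. Cluster 17 went the other way, from -0.27 in the shortest to 0.49 in the longest genes, as did cluster 9, one of the large clusters, from -0.10 to 0.39, and cluster 14 stayed between -0.17 and 0.02 in all bins. Among markers of other cell types in cluster 21, the endothelial list was 0.804 times the large clusters and the T and NK cell list, at 1.90 ± 1.08 CPM, 0.418 times. The neutrophil list was at 33.4 ± 52.1 CPM, 1.61 times the large clusters (0.505 to 2.74 by mouse), with Cxcr2, Mmp8 and Ly6g at 0; its part in the profile was not tested. Across 6240 genes its profile correlated most with cluster 1 (r = 0.910), less than cluster 14 did with cluster 4.

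**Figure D4:**
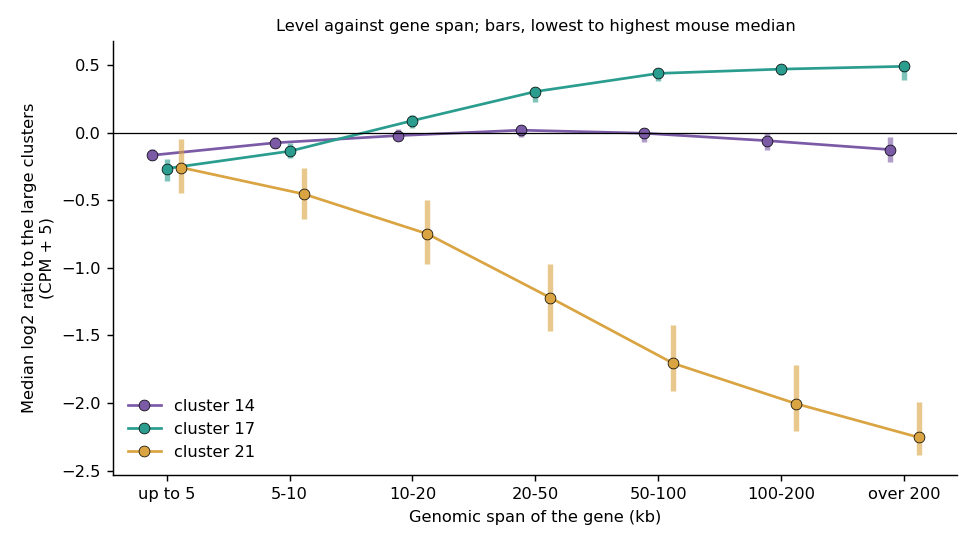
Median log2 ratio of clusters 14, 17 and 21 to the large clusters over genes grouped by span in the annotation (bins in kb), with bars from the lowest to the highest mouse median. Cluster 21 fell from -0.26 in genes of at most 5 kb to -2.26 in genes over 200 kb, and cluster 17 rose from -0.27 to 0.49.

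The share of tumor cells in cluster 14 was 7.33%, 7.49% and 7.30% in control and 4.03%, 3.75% and 3.76% in stress mice. The means of 7.37 ± 0.106% and 3.85 ± 0.161% (SD, n = 3 mice each) differed by -3.52 percentage points without overlap, which gave p = 0.10 in a two-sided exact permutation test, the smallest that 3 against 3 allows (adjusted p = 0.30 over the 3 clusters). Cluster 17 held 1.77%, 4.58% and 2.44% in control and 4.43%, 5.95% and 5.64% in stress mice (exact p = 0.20, adjusted p = 0.30), with control mouse 2 above stress mouse 1. Cluster 21 held 2.36%, 1.10% and 3.35% against 2.47%, 2.17% and 2.18%, with means of 2.27% in both groups (exact p = 1). Some genes that lead the clusters were themselves changed by stress in the large clusters, where 11.6% of all genes rose and 8.40% fell. Prc1, Kif11, Sgo2a and Nusap1 of cluster 14 fell, 5 of the 10 genes of cluster 17 rose, and 2 of cluster 21 rose with 2 lower. The 5 of cluster 17 were Lars2, Gphn, Cdk8, Cmss1 and Gm19951, members of a list put together from earlier results of these data. Since such genes decide in which cluster a cell is placed, the number of cells and the level of these genes cannot be told apart in the shares.

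Within cluster 14, 835 of 12442 genes differed between stress and control mice at an adjusted p under 0.05 (edgeR quasi-likelihood test on sums per mouse), which is 6.71%; 420 rose (3.38%) and 415 fell (3.34%). The sums behind these calls held 4660251 to 15985497 UMIs per mouse. In the large clusters, with 97136369 to 152584234 UMIs per mouse, the count was 3735 of 18637 (20%), and 1033 to 5489 with 1 mouse left out. The count of cluster 14 depended on single mice too, being 203, 1482 and 234 when control mice 1, 2 and 3 were left out in turn, and 443, 294 and 354 for stress mice 1, 2 and 3. Control mouse 2 stood apart in that the number of calls rose without it in each of the 3 clusters.

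Of the 19 genes of glycolysis and the hypoxia response that were tested in cluster 14, 12 fell and 7 did not pass, beside 3.34% of all genes that fell, with a median log2 change of -0.52 beside -0.00 over all genes. Gpi1, which converts glucose 6-phosphate to fructose 6-phosphate, was at 268, 245 and 230 CPM under control housing and 144, 140 and 157 CPM under stress (log2 fold change -0.85 ± 0.11 (SE), adjusted p = 0.0047 by edgeR). Pkm, the pyruvate kinase gene, was at 652, 748 and 645 CPM in control and 368, 477 and 425 CPM in stress mice (-0.79, adjusted p = 0.0049). Neither gene overlapped between the groups, as was true of 27.0% of all genes in cluster 14. Bnip3, a mitophagy receptor, fell by 0.82 on the log2 scale, the glucose transporter gene Slc2a1 by 0.63, Ldha by 0.56, Gapdh by 0.52 and Tpi1 by 0.44, while Pgk1, at -0.27, did not pass the test. In the large clusters the list fell in 13 of 21 cases with a median of -0.55, beside 8.40% of all genes there.

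Of the 10 leading genes of cluster 14, 1 fell under stress in that cluster, Kif11. Of the 20 genes of the G2/M list, 5 fell in cluster 14 (3.34% of all genes), with a median log2 change of -0.42, and 9 fell in the large clusters (8.40% of all genes), with a median of -0.52. Cdc20, the activator of the anaphase-promoting complex, was at 102, 101 and 83.5 CPM in control and 59.1, 70.5 and 64.2 CPM in stress mice (-0.67, adjusted p = 0.0094 by edgeR). Each control mouse exceeded each stress mouse. Aurka, the centrosome kinase gene, changed by -0.77 (adjusted p = 0.025), Ccnb1 by -0.54, Bub1b by -0.50 and Kif11 by -0.42. Replication histone genes, which package newly made DNA, rose in 10 of 11 cases, with a median of 1.08, and in 9 of 12 cases in the large clusters, beside 3.38% and 11.6% of all genes. H1f4, a linker histone gene, was at 34.8, 29.9 and 31.3 CPM in control and 95.02, 123.4 and 69.1 CPM in stress mice (1.47, adjusted p = 0.0033), and H2ac24 (1.65) and H2bc4 (1.59) rose too.

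Mitochondrially encoded mRNAs rose in 6 of 13 cases in cluster 14, among them mt-Atp8 (1.74), mt-Nd4l (1.62) and mt-Nd2 (1.25), and in 7 of 13 in the large clusters; of all genes, 3.38% rose and 3.34% fell in cluster 14, and 11.6% rose in the large clusters. Immediate-early genes fell in 3 of 18 cases, namely Fos (-1.15, adjusted p = 0.026 by edgeR), Egr1 (-0.63) and Ier2 (-0.62). Glucocorticoid-responsive genes are of interest after stress, since CUMS acts on animals in part through corticosterone. Here the stressors came before the tumor cells were implanted. Of 10 tested in cluster 14, 2 fell, Nfkbia (-0.85, adjusted p = 0.036) and Ddit4 (-1.04), beside a list median of -0.45. Tsc22d3, which encodes the glucocorticoid-induced leucine zipper, was at -1.48 (adjusted p = 0.088) and Fkbp5 at -0.45 (adjusted p = 0.41). The heat shock gene Hspa1b rose by 0.59 and the matrix gene Fn1 by 0.98. Among markers of other cell types, 1 of 9 endothelial genes tested rose, Pecam1 by 1.33, and 1 of 5 macrophage and monocyte genes, the receptor gene Csf1r by 1.75. The summed endothelial list of cluster 14 lay at 50.6 to 63.1 CPM in control and 60.1 to 73.6 CPM in stress mice with no member at 0, and the macrophage list at 12.5 to 27.7 CPM and 12.1 to 27.9 CPM with Ms4a7 at 0; their part in the other changes was not tested.

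The largest changes of cluster 14 lay mostly in rare transcripts. Gm20528 had no UMI in control mice and 1.46, 1.36 and 1.07 CPM in stress mice, from 22 UMIs in all, which makes it at least 19.5-fold higher against a floor of 3 UMIs over the control group (adjusted p = 0.0072 by edgeR). 4930438E09Rik was likewise at 0 in control and at least 16.8-fold higher from 19 UMIs (adjusted p = 0.0083). Gm57366 (5.45 ± 1.19, with 1.75, 1.17 and 21.9 CPM in stress mice), E330020D12Rik (5.27) and Tph2, the tryptophan hydroxylase gene (5.17), completed the 5 largest rises. E330020D12Rik rested on 2 UMIs in control and 40 in stress mice, and Tph2 on 1 and 22, with a mean of 1.32 CPM in stress mice. Among the largest falls, Dapk1, a death-associated kinase gene, was at 88.8, 45.2 and 73.3 CPM in control and 19.7, 15.4 and 8.80 CPM in stress mice (-2.31 ± 0.32, adjusted p = 0.005), beside -2.26 in the large clusters. Krt8, the partner of Krt18, was at 5.82, 4.25 and 10.0 CPM in control and 2.34, 0.974 and 1.502 CPM in stress mice (-2.11, adjusted p = 0.023), while in the large clusters it was at -0.70 and not called; the test of the difference between these effects did not pass (-1.48, adjusted p = 0.127 by edgeR). The other large falls were Rps18-ps4, a copy of a ribosomal protein gene whose reads are uncertain, Gm30092 and Gm35769.

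In cluster 17, 169 of 8423 genes differed between stress and control mice (2.01%), of which 139 rose (1.65%) and 30 fell (0.356%), from 454920 to 1090019 UMIs per mouse. The count was 39, 293 and 29 when control mice 1, 2 and 3 were left out in turn and 78 without stress mouse 1, and 273 when called doublets were left out. Ccnb1ip1, a ubiquitin ligase gene of cyclin B and of meiosis, was at 0, 6.42 and 0 CPM in control and 72.8, 56.9 and 72.2 CPM in stress mice (4.29 ± 0.53, adjusted p = 0.0006 by edgeR). Pde4c, a phosphodiesterase gene of cyclic AMP, was at 1.81, 6.42 and 4.396 CPM in control and 154, 32.7 and 90.3 CPM in stress mice (4.18, adjusted p = 0.0025), and Pou2f2, a factor of B cells, at 1.81, 0 and 0 CPM and 16.2, 14.8 and 21.4 CPM (4.74, adjusted p = 0.0067). The rule that named these 3 genes asked for groups without overlap, which held for 18% of all genes tested. Their separation is therefore no further result. ENSMUSG00000121456 (5.51) and Gm3336 (4.39) were the others of the 5 largest rises. In the large clusters Ccnb1ip1 (0.53), Pde4c (2.37), ENSMUSG00000121456 (2.55) and Gm3336 (1.52) were called as well, and Pou2f2 (0.72) was not. The edgeR test of the difference between effects passed for Ccnb1ip1 and Gm3336. It did not pass for Pde4c (adjusted p = 0.079), Pou2f2 (0.061) or ENSMUSG00000121456 (0.32). Map7, a microtubule-binding protein gene, was at 103, 82.6 and 103 CPM in control and 24.3, 21.1 and 29.3 CPM in stress mice (-1.97 ± 0.26, adjusted p = 0.0013), beside -1.56 in the large clusters. The other large falls were Gm46563, ENSMUSG00000121655, the ryanodine receptor gene Ryr3 and the ribosomal protein copy Rps27rt, whose reads are uncertain.

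Histone genes rose in 5 of 10 cases in cluster 17 (median 1.15), with H2bc4 at 2.25, H1f3 at 2.21 and H1f4 at 2.03. Of all genes tested in cluster 17, 1.65% rose and 0.356% fell, and the median log2 change was -0.02. Mitochondrially encoded mRNAs rose in 4 of 13 cases, with mt-Nd4l at 1.28 and mt-Atp8 at 1.25. Fos (-1.19, adjusted p = 0.038 by edgeR) and Egr1 (-0.99) fell, Hspa1b rose by 0.84 and Fn1 by 1.02. Glycolysis and hypoxia genes fell in 1 of 18 cases, Pgam1 (-0.82), with a median of -0.28. The endothelial gene Pecam1 was at 29.0, 33.0 and 11.0 CPM in control and 64.8, 53.8 and 90.3 CPM in stress mice (1.39, adjusted p = 0.045), beside 1.53 in the large clusters. It was the 1 endothelial gene of 9 tested that was called, and the summed endothelial list lay at 185 to 306 CPM in control and 261 to 507 CPM in stress mice. Pcdh17 rose by 1.89 (adjusted p = 0.0052). T and NK cell markers of cluster 17 summed to 1.81 to 22.02 CPM in control and 23.7 to 100.1 CPM in stress mice. These sums rested on 168 UMIs over all mice, and no member of the list was tested for stress in cluster 17. No difference between the groups is therefore read from them, and the part of these markers in the calls was not tested.

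In cluster 21, 45 of 5262 genes differed (0.855%), of which 21 rose (0.399%) and 24 fell (0.456%), from 697413 to 2054807 UMIs per mouse. The count was 195 without control mouse 2, 25 without control mouse 3 and 17 without stress mouse 3. Egr1, already low in this cluster, was at 75.4, 83.2 and 68.6 CPM in control and 15.1, 15.1 and 25.2 CPM in stress mice (-2.004 ± 0.28, adjusted p = 0.00035 by edgeR), beside -0.85 in the large clusters. Fos fell too (-1.54, adjusted p = 0.04). Myc, the growth factor-induced transcription factor gene, was at 10.1, 5.74 and 5.84 CPM in control and 28.8, 23.1 and 18.4 CPM in stress mice (1.67, adjusted p = 0.04). All of these groups were apart, as held for 12.4% of the genes tested. For Egr1 the naming rule asked for this, so there it is no further result. Mt4 was at 410, 30.1 and 362 CPM in control and 23.3, 5.32 and 2.90 CPM in stress mice (-4.60 ± 0.71, adjusted p = 0.0012), and Dapk1 at 136, 73.1 and 101 CPM and 25.4, 18.6 and 7.74 CPM (-2.55, adjusted p = 0.00035). Ryr3 (-2.32) and the ribosomal protein copy Gm6169 (-2.07, reads uncertain) were the other large falls. The median log2 change in cluster 21 was -0.35 for 15 G2/M genes, -0.34 for 18 glycolysis and hypoxia genes and 0.27 for 5 replication histones, beside 0.01 over all genes. No member of these lists was called there. Of the 13 mitochondrially encoded mRNAs, mt-Atp8 (1.85) and mt-Nd4l (1.71) rose.

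The transcripts Cmss1, Lars2, Gphn, Cdk8, Camk1d and Gm19951 rose under stress in all 3 clusters. They had been put together from earlier results of these data, so their common direction, calls and separation are no independent evidence. Of all genes, 3.38%, 1.65% and 0.399% rose in clusters 14, 17 and 21. Gphn was at 449, 599 and 503 CPM in control and 6412, 4211 and 4954 CPM in stress mice in cluster 17 (3.29, adjusted p = 4.3e-07 by edgeR), and at 107, 132 and 83.7 CPM and 950, 1479 and 1754 CPM in cluster 21 (3.75). Lars2 was at 333, 536 and 459 CPM in control and 4595, 3174 and 3661 CPM in stress mice in cluster 17, at 106, 126 and 84.2 CPM and 717, 1205 and 1412 CPM in cluster 21, and at 82.9, 108 and 73.8 CPM and 290, 425 and 599 CPM in the large clusters. Stress mice thus exceeded every control mouse in each class. Camk1d, a calcium-dependent kinase gene, was at 67.1, 90.3 and 72.0 CPM in control and 1011, 1896 and 1534 CPM in stress mice in cluster 21 (4.29 ± 0.27, adjusted p = 3.4e-09), and Cdk8 at 18.4, 14.3 and 16.1 CPM and 156, 323 and 338 CPM (4.001, adjusted p = 3.4e-08). The median log2 change of the 6 was 1.94 in cluster 14, 3.12 in cluster 17, 3.85 in cluster 21 and 1.91 in the large clusters. All 6 changed more in cluster 17 than in the large clusters, by 0.75 (Lars2) to 1.34 (Cmss1) on the log2 scale. All 6 changed more in cluster 21 too, by 1.10 (Lars2) to 2.36 (Cdk8). Both come from the edgeR test of the difference between the 2 effects in the same mice. Over all genes, 0.742% and 0.121% differed in effect in clusters 17 and 21, in either direction.

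**Figure D5:**
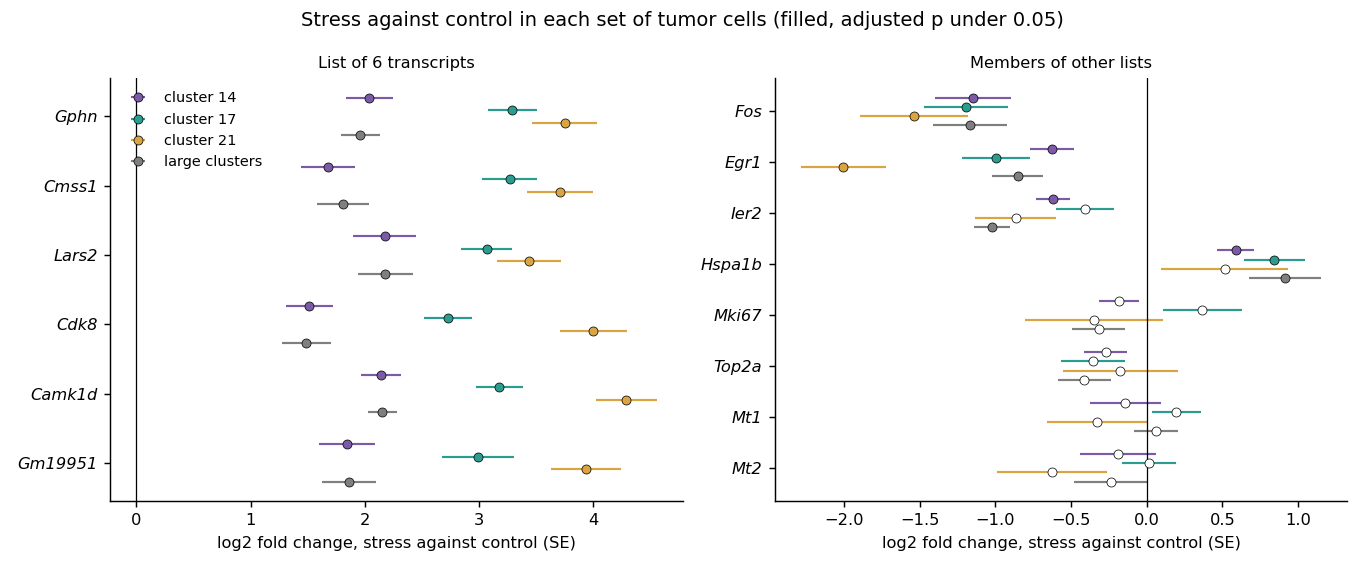
Log2 fold change of stress against control mice ± SE by edgeR in clusters 14, 17 and 21 and the large clusters, with filled points at an adjusted p under 0.05, for the 6 transcripts (left) and members of other lists (right). The median of the 6 lay at 3.85 in cluster 21 against 1.91 in the large clusters, and Egr1 at -2.004 against -0.85.

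Over all genes, the stress effect differed between cluster 14 and the large clusters for 10 of 17632 genes (0.0567%; 2 more positive and 8 more negative in cluster 14, or 3 and 4 with another scaling, RLE), and for 136 without the filter on low counts. Bhlhe40, a repressor of the clock and hypoxia pathways, was at 70.6, 70.2 and 70.4 CPM in control and 39.8, 44.4 and 48.9 CPM in stress mice in cluster 14, against 84.6, 94.4 and 90.7 CPM and 82.4, 92.0 and 147 CPM in the large clusters (difference -0.98 ± 0.12, adjusted p = 0.0028 by edgeR). It was thus lower in the stress mice of cluster 14 while the groups overlapped in the large clusters. Pim1, a survival kinase gene, changed by 0.09 in cluster 14 and by 0.80 in the large clusters (difference -0.82, adjusted p = 0.0021), and Nfkbia had a difference of -0.74 (adjusted p = 0.0083). Il34, a ligand of the macrophage receptor Csf1r, was at 17.2, 12.1 and 12.7 CPM in control and 23.9, 24.5 and 25.7 CPM in stress mice in cluster 14 (difference 0.85, adjusted p = 0.013). Wee1, the kinase gene that holds back entry into mitosis, had a difference of -0.63; it lies outside the naming rule and was chosen after its value was seen. The count was 6, 37 and 15 without control mice 1, 2 and 3, and 4, 19 and 11 without stress mice 1, 2 and 3.

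For cluster 17 the effect differed for 129 of 17391 genes (0.742%), 107 of them more positive, and the count was 38 without control mouse 1, 63 without control mouse 3 and 75 without stress mouse 1. Beside the 6 transcripts and Ccnb1ip1 (difference 3.71, adjusted p = 9.8e-08 by edgeR), the naming rule gave the genes that follow. Serpina1e, a secreted hepatocyte protein, was at 0 in control mice and at 60.7, 0 and 28.2 CPM in stress mice of cluster 17, at least 16.5-fold higher, and Fabp1, the liver fatty acid carrier, at 0 and at 54.6, 3.16 and 23.7 CPM, at least 15.3-fold higher. AI182371 was at 0 in control mice and at 2.02, 2.11 and 129 CPM in stress mice, and Apoc1, an apolipoprotein gene, at 0, 1.83 and 0 CPM and 36.4, 5.27 and 10.2 CPM (difference 4.42). Alas2, the heme synthesis enzyme of red cell precursors, was at 1.81, 9.17 and 2.20 CPM in control mice and at 0 in stress mice. Only 12 UMIs in all, most of them from control mouse 2, carry this difference. All 4 erythroid markers tested for the difference were called more negative in cluster 17, beside 0.742% of all genes called either way. Their summed level was likewise highest in control mouse 2.

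For cluster 21 the effect differed for 20 of 16499 genes (0.121%), 11 more positive and 9 more negative, and the count was 8 without control mouse 1, 11 without control mouse 3, and 11 and 13 without stress mice 1 and 2. Egr1 fell further in cluster 21 than in the large clusters (difference -1.29, adjusted p = 0.0099 by edgeR). For Mt4 the difference was -1.60 (adjusted p = 0.0006), but in the large clusters its own change, -3.33, did not pass (adjusted p = 0.102) and the groups overlapped. Taf5, a subunit of the general factor TFIID, was at 1.27, 2.87 and 0.973 CPM in control and 6.86, 9.76 and 6.78 CPM in stress mice of cluster 21 (difference 2.55). Aqp8, a water channel gene, was at 0, 25.8 and 0.487 CPM in control and 0, 69.2 and 8.71 CPM in stress mice, with 1 mouse of each group carrying most of it.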

How the data were processed

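UMI counts per gene and cell were deposited by the authors as 1 unnormalized matrix per mouse, with a table that gives each cell its cluster and type. Per the submitters' processing notes and the file headers, reads were processed with Cell Ranger (9.0.0 in control, 7.1.0 in stress libraries) on mm10, and cells were clustered with Seurat; the study's methods state filters on mitochondrial reads and gene number and a doublet search before clustering. Cells are not replicates, so here the counts were summed per mouse and cluster. All cells of the annotation were used, and 0 columns of the files were left unmapped.

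Stress and control sums were compared with the quasi-likelihood test of edgeR 4.0.16 (filterByExpr, TMM, Benjamini-Hochberg, adjusted p under 0.05, at least 10 cells per mouse; R 4.3.3, limma 3.58.1), and the difference between 2 stress effects with mouse as a covariate. Shares were compared by exact permutation (scipy 1.17.1). DESeq2 1.42.0, RLE scaling, no filter, leaving out each mouse, doublets or the replicate block were alternatives. Doublets were called with Scrublet in scanpy 1.11.5 (expected rate 6%) and kept. Named genes were the 10 highest and 5 lowest of at least 20 CPM on the same side in every mouse. Per stress comparison they were the 5 largest rises, falls and differences past the threshold, taken where the groups did not overlap. For differences this was asked of the log2 ratios to the large clusters. List members could be named too. The clusters, gene lists and naming rule were chosen with earlier results of these data known. The scripts were tested on simulated counts. The floor of 3 UMIs covers counting error only. Of 34099 gene identifiers, 32109 were found in GENCODE M21, from which gene spans were taken. Promoter sequences are those of RefSeq (GRCm38.p6). Some leading genes of cluster 21 are not reported here.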

Additional observations from a re-analysis of the deposited data

Results flagged for a closer look

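The results singled out here are those in which the stress effect differed between 1 of the 3 clusters and the large tumor clusters in the edgeR test of that difference. There were 10 such genes for cluster 14, 129 for cluster 17 and 20 for cluster 21. No group of mice was large enough for a test of single outlying samples.

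In cluster 14 the named genes were Gm13842 (difference of log2 effects -2.53), Bhlhe40 (-0.98), Il34 (0.85), Pim1 (-0.82) and Nfkbia (-0.74). In cluster 17 they were Serpina1e (14.10), Fabp1 (13.37), AI182371 (12.02), Alas2 (-11.92) and Apoc1 (4.42). The first 4 of these had no UMI in 1 of the groups in cluster 17, so that the fitted values depend on the prior count and are no bounds. The level of AI182371 rested almost wholly on stress mouse 3 (2.02, 2.11 and 129 CPM in the stress mice). In cluster 21 they were 4930478K11Rik (-13.55), Gm47080 (-2.68), Taf5 (2.55), Aqp8 (2.38) and Cdk8 (2.36). 4930478K11Rik was at 9.50, 1.43 and 0 CPM in control mice and had no UMI in stress mice of cluster 21, so its fitted value is no bound either, and its 16 UMIs came almost wholly from control mouse 1.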

How the results depend on the processing

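Without a filter on low counts the stress calls were 1639 in cluster 14 (main 835), 561 in cluster 17 (main 169) and 114 in cluster 21 (main 45), and 136 genes in place of 10 had a differing effect in cluster 14. Without called doublets cluster 17 gave 273 calls, and its endothelial list a log2 ratio of 1.54 (main 2.06). With equal weight for the large clusters the G2/M list of cluster 14 was at 1.23 (main 1.01). DESeq2 gave 1040, 174 and 43 calls in clusters 14, 17 and 21, with 121 rises and 53 falls in cluster 17, and 4851 in the large clusters (2337 rises, 2514 falls). Leaving out 1 mouse gave 203 to 1482 calls in cluster 14, 29 to 293 in cluster 17, 17 to 195 in cluster 21 and 1033 to 5489 in the large clusters, and 4 to 37, 38 to 182 and 8 to 25 genes with a differing effect. It took the share difference of cluster 14 to between -3.62 and -3.46 points, of cluster 17 to between 1.83 and 3.23, and of cluster 21 to between -0.58 and 0.55 (main 0.0062), with -0.0907 without stress mouse 1; of all annotated cells the latter was -0.308. The cause was not tested. A replicate block on the label numbers gave 830, 147 and 172 calls in clusters 14, 17 and 21, 4951 in the large clusters, and share differences of -3.52, 2.41 and 0.0062 points. The labels do not say whether the numbers pair mice, and the deviations from the group means do not settle it. For the first pair they correlated positively (0.341, 0.123, 0.317 and 0.492 in clusters 14, 17 and 21 and the large clusters). The second pair did so too (0.145, 0.0809, 0.303 and 0.385), whereas those of the third pair correlated negatively in each class (-0.176, -0.0798, -0.0626 and -0.112). Of the named stress effects without 1 mouse, 133 of 163 refits kept direction and threshold and 30 kept direction only; for the differences between effects these were 51 and 39 of 90. The sums per mouse held 454920 to 1090019 UMIs in cluster 17 and 697413 to 2054807 in cluster 21; whether this depth set their counts of calls was not tested.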
